A study of Mus musculus with 4 samples.

Results

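Polycomb repressive complex 2 (PRC2) was followed through its subunit genes in mouse embryonic stem (ES) cells in which the pluripotency factors Esrrb, Sox2 or both had been knocked down. The members were 10 genes, namely the methyltransferases Ezh1 and Ezh2, the core subunits Eed, Suz12, Rbbp4 and Rbbp7, and the accessory subunits Jarid2, Mtf2, Phf19 and Aebp2. They were chosen by name, and every probe whose platform gene symbol is one of them was taken. Of the 10 genes, 9 had a probe, with 17 probes in all among 25697 probes for 16593 genes, and Rbbp4 had none.

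The labels call the material mouse ES cells with E14 as the developmental stage, kept in ordinary ES cell culture, and biotin-labelled total RNA was hybridised to Illumina bead arrays of 1 colour. Cells were lipofected with short hairpin RNAs against Esrrb, against Sox2, or against Esrrb and Sox2 together (EsrrbSox2, called the dual knockdown here), or with a hairpin against GFP, the control, and all 4 groups were selected with puromycin for 2 days before harvest. Each group has 4 arrays with the letters A to D. Nothing in the labels says whether these 4 came from separate transfections, and the p-values then cover array-to-array spread alone, possibly of technical origin. In bulk RNA, fewer cells of a type and less RNA per cell cannot be told apart.

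PRC2 places methyl groups on lysine 27 of histone H3, and the trimethylated form marks silenced developmental genes in ES cells. Ezh2, or its paralog Ezh1, holds the catalytic site, Eed reads the mark and stimulates the enzyme, Suz12 holds the complex together, and Rbbp4 or Rbbp7 binds histones. Accessory subunits define alternative forms of the complex. Mtf2 and Phf19 are Polycomb-like proteins that bring PRC2 to unmethylated CpG islands, whereas Aebp2 and Jarid2 belong to another form. Mouse ES cells that lack Eed or Suz12 can still be grown but silence and activate lineage genes abnormally during differentiation.

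Promoter windows of 3 members are shown because the results turn on them: Rbbp7 had the largest rise, Mtf2 fell with the Sox2 hairpin, and Ezh2 encodes the enzyme. The windows reach from 250 bases before to 50 bases after the transcript start, are written on the gene's strand, and come from RefSeq on build GRCm38.p6. Mtf2 had 2 windows, of which the more upstream is shown, and the windows of Mtf2 and Ezh2 do not sit at the outermost annotated end of the gene. Rbbp7 lies at chrX:162760122-162760421 (plus strand), Mtf2 at chr5:108065424-108065723 (plus strand) and Ezh2 at chr6:47594981-47595280 (minus strand). Capitals mark matches to the letters searched on both strands, which were AAGGTCA for Esrrb, CTTTGT or CATTGT for SOX factors, and TTTCGCGC or TTTGGCGC for E2F factors.
Rbbp7 promoter: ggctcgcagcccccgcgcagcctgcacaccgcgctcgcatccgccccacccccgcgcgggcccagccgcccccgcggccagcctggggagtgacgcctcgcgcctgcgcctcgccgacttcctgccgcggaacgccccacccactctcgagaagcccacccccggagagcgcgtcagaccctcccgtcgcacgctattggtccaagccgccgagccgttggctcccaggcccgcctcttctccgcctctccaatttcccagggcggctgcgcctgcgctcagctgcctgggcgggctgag
Mtf2 promoter: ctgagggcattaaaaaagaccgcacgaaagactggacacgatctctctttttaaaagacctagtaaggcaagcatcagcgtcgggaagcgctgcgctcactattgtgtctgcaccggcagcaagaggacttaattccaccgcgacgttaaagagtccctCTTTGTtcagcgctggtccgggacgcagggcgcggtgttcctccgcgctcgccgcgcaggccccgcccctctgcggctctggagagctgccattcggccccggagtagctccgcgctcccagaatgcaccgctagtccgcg
Ezh2 promoter: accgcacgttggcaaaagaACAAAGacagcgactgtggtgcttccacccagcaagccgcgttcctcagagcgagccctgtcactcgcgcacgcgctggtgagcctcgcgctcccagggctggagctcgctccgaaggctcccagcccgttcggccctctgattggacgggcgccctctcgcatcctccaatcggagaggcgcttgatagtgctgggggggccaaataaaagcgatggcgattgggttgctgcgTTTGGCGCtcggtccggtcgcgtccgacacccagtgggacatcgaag
The Mtf2 window held 1 SOX match at position -91, and the Ezh2 window held 1 SOX match on the other strand at position -231 and 1 E2F match at position 4, counted from the transcript start. None of the letters searched was found in the Rbbp7 window. Among 32851 promoter windows of this length, 28.6% held a SOX match, 4.718% the Esrrb letters and 0.8128% an E2F match. The windows of Rbbp7, Mtf2 and Ezh2 held 38, 30 and 31 CpG dinucleotides, against a median of 7 over all windows. A match of letters is a description and not evidence of binding.

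Of the 17 PRC2 probes, 11 passed the detection filter, which asked for a detection p under 0.01 on each of the 4 arrays in 1 group or more, and stood for 8 genes. All 11 were detected on every GFP array, so none had entered through a knockdown group alone. Phf19 passed only through its Sox2 and GFP arrays, where it was high, so the filter favours falls of Phf19 in the other groups. The 6 probes left out were the only Jarid2 probe, 2 of the 3 Aebp2 probes, 2 of the 3 Ezh2 probes and 1 of the 2 Ezh1 probes. Jarid2, which recruits PRC2 in ES cells, was listed between -14.0 and 12.6 intensity units and was detected on 0 of 16 arrays, so its transcript was not measured. Rbbp7 had 4 kept probes, which report on 1 gene and are not independent. Since Rbbp7 and the unprobed Rbbp4 are close paralogs and probe sequences were not used here, signal from Rbbp4 RNA on the Rbbp7 probes was not tested.

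The targets were checked first. Esrrb transcript averaged 2691 ± 77.5 intensity units with the Esrrb hairpin, 4804 ± 176 with the Sox2 hairpin and 3253 ± 143 in the dual knockdown, against 12841 ± 546 with the GFP hairpin (SD, n = 4 each). Sox2 transcript (ILMN_2656102) averaged 495 ± 50.9, 513 ± 43.3 and 371 ± 22.8 in the Esrrb, Sox2 and dual knockdowns, against 795 ± 59.5 with the GFP hairpin, all called lower. The second, dim Sox2 probe (ILMN_1248711) was called lower in the dual knockdown (-1.07), but did not pass with the Sox2 hairpin (-0.43, limma adjusted p = 0.0690, or 0.0418 with the array letter as a replicate block) or the Esrrb hairpin (-0.26, adjusted p = 0.420). Each array had 11286 to 13322 detected probes. In all groups, arrays A and B stood apart from arrays C and D, with 11286 to 12054 against 12994 to 13322 detected probes, so differences within each pair of letters are given beside the main results.

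Log2 differences below are the group named first minus the other, from limma's fit of 11591 probes, and a call means a Benjamini-Hochberg adjusted p (over all of them) under 0.05. With the Esrrb hairpin, 4 of the 11 PRC2 probes were called against GFP, 3 higher (all Rbbp7) and 1 lower (Phf19), beside 10.2% of all probes called (5.12% higher and 5.05% lower). With the Sox2 hairpin, 5 of 11 were called, 4 higher (all Rbbp7) and 1 lower (Mtf2), beside 40.2% (20.0% higher and 20.2% lower). In the dual knockdown, 7 of 11 were called, 4 higher (all Rbbp7) and 3 lower (Mtf2, Phf19 and Eed), beside 41.7% (20.6% higher and 21.2% lower). In genes, that is 1 higher and 1 lower of 8 for either single hairpin, and 1 higher and 3 lower of 8 for both. Without normalization between arrays, 18.4, 27.8 and 29.5% of all calls for the Esrrb, Sox2 and dual knockdowns were higher, against 50.3, 49.8 and 49.3% with it. The median over 8 genes, with the brightest probe of each, was -0.01, -0.21 and -0.21 log2 units against GFP for the Esrrb, Sox2 and dual knockdowns, while that of all probes was 0.003, -0.005 and -0.02.

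**Figure D1:**
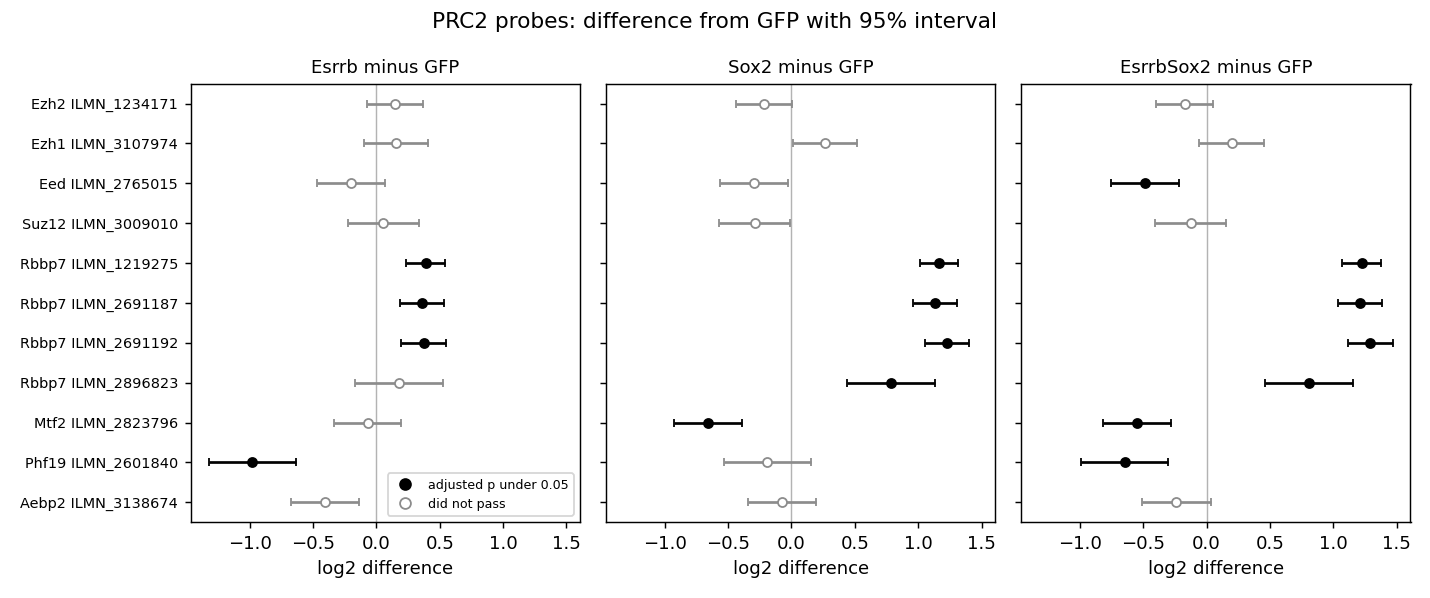
Log2 difference from GFP of the 11 kept PRC2 probes, with bars for the 95% confidence interval, in the Esrrb (left), Sox2 (middle) and dual (right) knockdowns, 4 arrays a group; filled points have an adjusted p under 0.05. The Rbbp7 probes lie between 0.79 and 1.29 in the Sox2 and dual panels, while Phf19 is lowest in the Esrrb panel at -0.98 and Mtf2 in the Sox2 panel at -0.66.

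Rbbp7, the histone-binding WD40 protein shared by PRC2 and several deacetylase and chromatin assembly complexes, rose with every hairpin and most with the Sox2 hairpin present. Its brightest probe (ILMN_2691192) read 4136.5, 4689.9, 4308.6 and 4258.6 intensity units on arrays A to D with the Esrrb hairpin. It read 6710.3, 6813, 7717.4 and 8943.6 with the Sox2 hairpin and 7724.5, 7958, 7473.7 and 7923.4 in the dual knockdown, against 3357.7, 3852.8, 3512.6 and 3959.3 with the GFP hairpin. The knockdown arrays all lay above the GFP arrays, and the Sox2 and dual arrays all lay above the Esrrb arrays. Against GFP the log2 difference was 0.37 ± 0.083 (SE) with the Esrrb hairpin, 1.23 ± 0.083 with the Sox2 hairpin and 1.29 ± 0.083 with both (limma adjusted p = 0.00796, 2.11e-08 and 9.34e-09), which is 1.29-fold, 2.34-fold and 2.45-fold.

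The other Rbbp7 probes moved the same way. ILMN_1219275 and ILMN_2691187 differed from GFP by 0.39 and 0.36 log2 units with the Esrrb hairpin, by 1.17 and 1.13 with the Sox2 hairpin, and by 1.22 and 1.21 in the dual knockdown, all called. The dim probe ILMN_2896823 read 113.8, 143.6, 100.9 and 114.5 with the Esrrb hairpin, 231.9, 144.4, 163.5 and 210.5 with the Sox2 hairpin and 233, 219.5, 164.5 and 153.9 in the dual knockdown, against 104.4, 117.2, 122.3 and 94.1 with the GFP hairpin. Its Esrrb arrays overlapped the GFP arrays, and its difference of 0.18 there did not pass (adjusted p = 0.575), whereas 0.79 and 0.81 in the Sox2 and dual knockdowns passed. Within the A and B arrays and within the C and D arrays, ILMN_2691192 differed from GFP by 1.13 and 1.32 for Sox2, by 1.34 and 1.25 for the dual knockdown and by 0.38 and 0.36 for Esrrb. The calls for Sox2 and for the dual knockdown were kept by all 4 probes under each alternative that gave them a test, but for Esrrb the calls of all 3 probes were lost under median scaling and in either pair of letters alone. Without normalization between arrays, ILMN_2691192 and ILMN_2691187 also lost it (0.25 and 0.24, adjusted p = 0.0874 and 0.104).

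**Figure D2:**
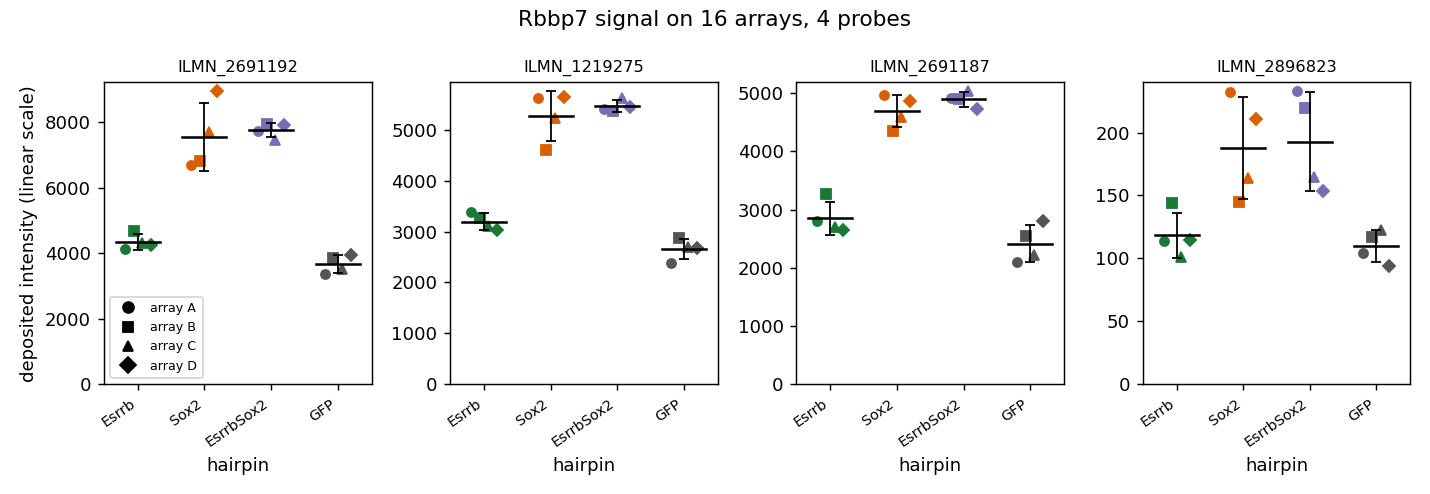
Deposited intensity (linear scale, from 0) of the 4 Rbbp7 probes on each array, by hairpin; marker shapes give the array letter, horizontal lines the mean and bars the SD of 4 arrays. On the brightest probe the Sox2 and dual arrays lie between 6710.3 and 8943.6 and the GFP arrays between 3357.7 and 3959.3, with the Esrrb arrays between them at 4136.5 to 4689.9.

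Rbbp7 was also higher in the dual than in the Esrrb knockdown, by 0.92 ± 0.083 log2 units for ILMN_2691192 (limma adjusted p = 6.80e-07). Between the dual and the Sox2 knockdown it differed by 0.06, with a 95% interval of -0.11 to 0.24 (adjusted p = 0.746). Addition of the single effects was tested as an interaction, the dual difference from GFP minus the sum of both single differences. In limma's fit it was -0.31, with an interval of -0.56 to -0.06, and did not pass (adjusted p = 0.212). The same interaction was -0.33 for ILMN_1219275 (adjusted p = 0.109, or 0.0412 with a trended robust variance).

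Ezh2, the catalytic subunit, did not pass against GFP for any hairpin in the normalized data, but differed between the Esrrb and the Sox2 knockdown. Its kept probe (ILMN_1234171) read 2369.9, 2453, 2464.5 and 2645.8 on arrays A to D with the Esrrb hairpin, 1536.7, 1641.8, 2276.2 and 2000 with the Sox2 hairpin and 1873, 1797.6, 1919.6 and 2101.9 in the dual knockdown. With the GFP hairpin it read 2089.2, 2404.5, 2703.4 and 2614. Every Esrrb array lay above every Sox2 and dual array, and the GFP arrays overlapped all other groups. The difference was 0.37 ± 0.10 for Esrrb against Sox2 and -0.32 ± 0.10 for dual against Esrrb (limma adjusted p = 0.0110 and 0.0241). Against GFP it was 0.15, -0.22 and -0.17 for the Esrrb, Sox2 and dual knockdowns (adjusted p = 0.447, 0.107 and 0.198), and the Sox2 difference passed with the array letter as a replicate block (adjusted p = 0.037) and without Sox2 array C (adjusted p = 0.0294). Without normalization between arrays, where the median of all probes itself lay at -0.14, Ezh2 passed for Sox2 (-0.40, adjusted p = 0.00924) and for the dual knockdown (-0.34, adjusted p = 0.0216). The dual against Esrrb call was lost without Esrrb array D, EsrrbSox2 array A or EsrrbSox2 array C (adjusted p = 0.0729, 0.0667 and 0.0605). It was -0.31 within A and B and -0.33 within C and D, neither called (adjusted p = 0.0764 and 0.111), and was lost under median scaling and without the filter (adjusted p = 0.277 and 0.0577). The Esrrb against Sox2 call was lost in C and D alone (0.27, adjusted p = 0.164) and under median scaling (adjusted p = 0.176).

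Ezh1, the paralog of Ezh2 that prevails in cells that no longer divide, was dim on its kept probe (ILMN_3107974). It read 31.0 to 48.6 intensity units with the Esrrb hairpin, 34.6 to 61.8 with the Sox2 hairpin and 37.5 to 43.5 in the dual knockdown, against 24.8 to 49.8 with the GFP hairpin. All groups overlapped. Its differences from GFP were 0.15, 0.26 and 0.20, and none passed (adjusted p = 0.495, 0.0916 and 0.205). Ezh1 for Sox2 against GFP had an adjusted p of 0.0378 without Sox2 array B and of 0.0387 without GFP array A. That difference was 0.04 within A and B, not called, and 0.55 within C and D, called (adjusted p = 0.0491). The difference Ezh1 minus Ezh2 within an array was compared between groups with a two-sided exact permutation test in 6 comparisons, whose smallest possible p was 0.0286. For Esrrb minus Sox2 it was -0.48 (exact p = 0.0286, adjusted over the 6 p = 0.129), and for Sox2 minus GFP it was 0.48 (exact p = 0.0857, adjusted p = 0.129).

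Eed, the WD40 subunit that binds trimethylated lysine 27, fell in the dual knockdown. It read 621.8, 561.2, 519.4 and 472.4 with the Esrrb hairpin, 519.5, 471.1, 488.7 and 494.2 with the Sox2 hairpin and 591.2, 317.2, 457.9 and 419.2 in the dual knockdown, against 701.5, 678.2, 783.6 and 584.5 with the GFP hairpin. Dual array A lay above GFP array D, so these groups overlapped by 1 array on the intensity scale. The difference from GFP was -0.49 ± 0.13 for the dual knockdown (limma adjusted p = 0.00551), and -0.51 and -0.46 within A and B and within C and D, where neither passed. For Sox2 it was -0.29 (adjusted p = 0.0742, or 0.0305 with the replicate block) and for Esrrb -0.20 (adjusted p = 0.385). Dual against Esrrb was -0.29 (adjusted p = 0.0849, or 0.0361 with the replicate block).

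Suz12, the scaffold subunit, was not called against GFP. Its probe (ILMN_3009010) read 6799, 6283, 7581.4 and 6743.5 with the Esrrb hairpin, 4520.6, 4400.5, 6666.9 and 5328.8 with the Sox2 hairpin and 6164.5, 4804.3, 5516.8 and 6495.4 in the dual knockdown, against 6508.5, 7214.3, 8657.6 and 6561.1 with the GFP hairpin. Sox2 array C stood within the range of the Esrrb and GFP arrays, and the other Sox2 arrays lay below both groups. The difference from GFP was 0.06, -0.29 and -0.13 for the Esrrb, Sox2 and dual knockdowns (adjusted p = 0.861, 0.0878 and 0.469), and the Sox2 value was -0.41 without Sox2 array C (adjusted p = 0.0172). It also passed with the pair of letters as a block (adjusted p = 0.0441), within A and B alone (-0.40, adjusted p = 0.0377) and without normalization between arrays (-0.48, adjusted p = 0.0092). Esrrb against Sox2 was 0.35 ± 0.13 (adjusted p = 0.0446), a call lost in 8 of the 16 fits that each left out 1 array (adjusted p of those 16 fits 0.00816 to 0.127). That call was also lost under median scaling, without the filter and in C and D alone (0.26, adjusted p = 0.373).

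**Figure D3:**
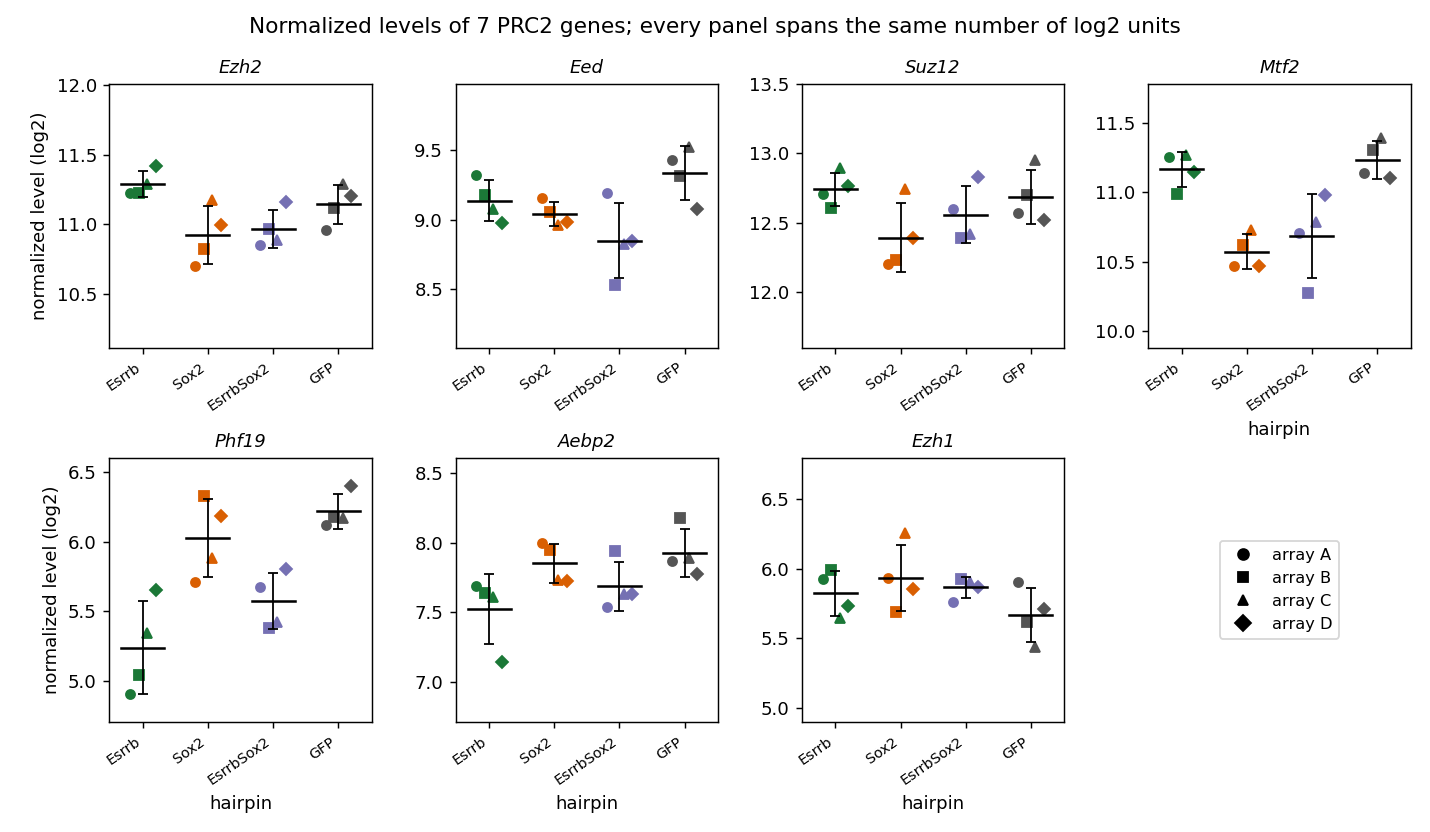
Normalized log2 level of 7 PRC2 genes (the brightest kept probe of each) on each array, by hairpin; marker shapes give the array letter, horizontal lines the mean and bars the SD of 4 arrays, and every panel spans the same number of log2 units. The Sox2 and dual arrays of Mtf2 lie below its Esrrb and GFP arrays, and the Esrrb arrays of Phf19 lie below its Sox2 and GFP arrays.

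Mtf2, the Polycomb-like subunit that binds CpG-rich DNA, fell with the Sox2 hairpin and in the dual knockdown but did not pass with the Esrrb hairpin. It read 2424.3, 2059.6, 2404 and 2168.8 on arrays A to D with the Esrrb hairpin, 1313.8, 1419.6, 1675.5 and 1389.1 with the Sox2 hairpin and 1693.4, 1093.6, 1781.5 and 1873.9 in the dual knockdown. With the GFP hairpin it read 2359.7, 2743.2, 2840.4 and 2416. No Sox2 or dual array reached the lowest Esrrb or GFP array, and the Esrrb and GFP arrays overlapped. The difference from GFP was -0.66 ± 0.13 for Sox2 and -0.55 ± 0.13 for the dual knockdown (limma adjusted p = 6.15e-04 and 0.00245), and -0.07 for Esrrb, with a 95% interval of -0.34 to 0.20 (adjusted p = 0.816).

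Mtf2 also differed between the single knockdowns. Esrrb against Sox2 was 0.59 ± 0.13 (limma adjusted p = 0.00158) and dual against Esrrb was -0.48 ± 0.13 (adjusted p = 0.00739), a call lost in C and D alone (-0.32, adjusted p = 0.159) and under median scaling (adjusted p = 0.115). Within A and B and within C and D, the difference from GFP was -0.68 and -0.64 for Sox2, both called, and -0.73 and -0.36 for the dual knockdown, of which the second did not pass (adjusted p = 0.109). Dual against Sox2 was 0.11, with an interval of -0.16 to 0.38 (adjusted p = 0.698).

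Phf19, a second Polycomb-like subunit, showed another order: it fell with the Esrrb hairpin and in the dual knockdown and did not pass with the Sox2 hairpin. Its dim probe (ILMN_2601840) read 15.0, 19.1, 20.5 and 30.2 with the Esrrb hairpin, 36.9, 59.7, 42.8 and 56.8 with the Sox2 hairpin and 38.7, 26.9, 24.1 and 34.5 in the dual knockdown, against 58.6, 62.2, 58.4 and 73.2 with the GFP hairpin. It was detected on 2 of 4 Esrrb arrays, on 3 of 4 dual arrays and on every Sox2 and GFP array. It thus passed the filter only through Sox2 and GFP arrays, which favours falls in the Esrrb and dual knockdowns. The Esrrb arrays lay below all Sox2 and GFP arrays. The difference from GFP was -0.98 ± 0.16 for Esrrb, -0.65 ± 0.16 for the dual knockdown and -0.19 ± 0.16 for Sox2 (limma adjusted p = 8.67e-04, 0.00443 and 0.374).

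Esrrb against Sox2 was -0.79 ± 0.16 for Phf19 (limma adjusted p = 0.00116), and was not called in C and D alone (-0.62, adjusted p = 0.0628). The filter favours negative values here too, and for dual against Sox2, since Phf19 passed through Sox2 and GFP arrays only. Within A and B and within C and D, Esrrb against GFP was -1.01 and -0.90, and did not pass in C and D alone (adjusted p = 0.0629). Dual against GFP was -0.53 and -0.76 there, and did not pass in A and B alone (adjusted p = 0.0545). Dual against Sox2 was -0.45 (adjusted p = 0.121, or 0.0483 with the replicate block). The log2 values carry an offset of 16 intensity units, which shrinks differences of dim probes, and in the authors' deposited table of processed ratios the Phf19 difference of Esrrb from GFP was -1.47.

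Aebp2, a zinc finger subunit of the form that also holds Jarid2, had 1 kept probe (ILMN_3138674). It read 188.7, 179.6, 179.8 and 120.8 with the Esrrb hairpin, 221, 209.5, 202.6 and 197.8 with the Sox2 hairpin and 178.9, 204.7, 192.4 and 171.2 in the dual knockdown, against 221, 293.8, 237.3 and 221.2 with the GFP hairpin. The Esrrb arrays lay below all Sox2 and GFP arrays. The difference from GFP was -0.41, -0.07 and -0.24 for the Esrrb, Sox2 and dual knockdowns and did not pass (limma adjusted p = 0.0544, 0.678 and 0.147). For Esrrb it passed in 6 of 11 alternatives, among them the replicate block (adjusted p = 0.0124) and no normalization between arrays (adjusted p = 0.0106). It passed in 1 of the 16 fits that each left out 1 array. Esrrb against Sox2 was -0.33 ± 0.13 (adjusted p = 0.0484), a call lost in 11 of the 16 fits that each left out 1 array (adjusted p of those 16 fits 0.0371 to 0.169). That call was also lost without normalization between arrays, under median scaling and without the filter. Within A and B and within C and D the difference was -0.32 and -0.35, neither called (adjusted p = 0.181 and 0.129). A second Aebp2 probe (ILMN_3040064) missed the filter, being detected on 3 of 4 GFP arrays, 1 Sox2 array and no other. That probe read -6.1, -4.8, 7.2 and 14.8 with the Esrrb hairpin, 7.5, 5.0, 21.5 and 16.5 with the Sox2 hairpin and 4.1, 4.3, 1.2 and 15.8 in the dual knockdown, against 40.9, 52.6, 75.9 and 65.1 with the GFP hairpin.

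All 4 GFP arrays of ILMN_3040064 lay above all knockdown arrays. In the fit of all probes without the filter its signal was at least 1.60-fold lower with the Esrrb hairpin and at least 1.60-fold lower in the dual knockdown, with no detected array in either (limma adjusted p = 0.00174 and 3.93e-04). With the Sox2 hairpin it was also called lower (limma adjusted p = 0.00177), but no fold is given because 1 of 4 arrays was detected. A lower bound of this kind sets the GFP mean against the lowest detected signal of each dim array. The Aebp2 probes are assigned to different transcript records. In the main fit the kept probe did not pass in these comparisons, though its differences were also negative. The third Aebp2 probe was detected on 0 arrays.

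The comparisons between knockdowns gave the following counts of PRC2 probes. Dual against Esrrb had 6 of 11 called, 4 higher (Rbbp7) and 2 lower (Ezh2 and Mtf2), beside 37.4% of all probes. In genes, that is 1 higher and 2 lower of 8, which lies near the share of all probes. Of all 11591 probes, 2184 were called higher and 2146 lower. Esrrb against Sox2 had 9 of 11 called, 3 higher (Ezh2, Suz12 and Mtf2) and 6 lower (4 Rbbp7 probes, Phf19 and Aebp2), beside 39.9%. In genes, that is 3 higher and 3 lower of 8. Of all 11591 probes, 2275 were called higher and 2353 lower. In limma's fit, dual against Sox2 had 0 of 11 called, beside 5.27%. At an unadjusted p under 0.05 it had 1 of the 11 (Phf19), beside 2266 of all 11591 probes. The interaction had 0 of 11 called, beside 2.50%. At an unadjusted p under 0.05 it had 4 of the 11 (3 probes of the 1 gene Rbbp7, and Phf19), beside 1710 of all 11591 probes. Of the alternatives, the replicate block called 1 probe for dual against Sox2, beside 878 of all 11591 probes. A trended robust variance called 1 Rbbp7 probe for the interaction, beside 398 of all 11591 probes. A count of 0 does not show that the members did not differ.

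The genes most like each core subunit over the 16 arrays were found by Pearson's r of normalized log2 values. For Ezh2 they were Gtf2h1 (r = 0.948), Mslnl (0.939) and Ccar1 (0.921), for Eed Prpf38a (0.893), Simc1 (0.889) and Ppp2r2d (0.870), and for Suz12 Wwp1 (0.946), Rab8b (0.929) and Ccser2 (0.920). Rbbp7, added after its values were seen, was most like Prss8 (0.983), Tceal9 (0.982) and Ldoc1 (0.981). Among the members, r was 0.83 for Ezh2 with Suz12, 0.71 for Ezh2 with Mtf2, 0.15 for Ezh2 with Eed and -0.85 for Mtf2 with Rbbp7 (ILMN_2691192). These values describe 16 arrays that share groups and array letters.

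PRC1, the complex that ubiquitinates histone H2A at many PRC2-marked genes, had 15 of 20 genes on the array kept. Of these, 6 rose and 2 fell in the dual knockdown, with a median of 0.22, against -0.02 over all probes, while 5 rose and 2 fell with the Sox2 hairpin and 3 rose and 1 fell with the Esrrb hairpin. Over all probes, 20.6, 20.0 and 5.12% were called higher and 21.2, 20.2 and 5.05% lower in the dual, Sox2 and Esrrb knockdowns. Cbx8 had passed the filter only through Sox2 and dual arrays. Over the 14 PRC1 genes detected on every GFP array, 6 rose and 2 fell in the dual knockdown, with a median of 0.15, and 4 rose and 2 fell with the Sox2 hairpin. Bcor, a scaffold of a variant PRC1, differed by 0.48, 1.11 and 1.25 in the Esrrb, Sox2 and dual knockdowns, and Pcgf5, a RING-finger subunit of another variant form, by 0.31, 0.79 and 1.22. Phc1, a Polyhomeotic subunit of canonical PRC1, fell by 1.20 with the Sox2 hairpin and by 0.89 in the dual knockdown, and differed by -0.01 with the Esrrb hairpin (adjusted p = 0.954). Cbx7, a chromodomain subunit that reads the PRC2 mark, rose by 0.45 in the dual knockdown. Without normalization between arrays, and without the detection filter, 3 PRC1 genes rose in the dual knockdown, and with median scaling 2 did. Within C and D alone 3 rose, and within A and B alone 5. Higher calls over all probes also changed with the setting, from 2386 of 11591 in the main fit. They were 1556 of 11591 without normalization between arrays, 2083 of 25697 without the filter and 1181 of 11591 with median scaling. Within C and D alone they were 1802 of 13474, and within A and B alone 1767 of 12150.

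Epop, an accessory subunit of the Mtf2 form of PRC2 that was not among the members, fell by 0.27, 0.54 and 0.57 in the Esrrb, Sox2 and dual knockdowns (limma adjusted p = 0.0421, 7.17e-05 and 3.88e-05). Ezhip, an inhibitor of the complex, fell by 0.37 with the Esrrb hairpin (adjusted p = 0.0376). The demethylases that remove the mark, Kdm6a and Kdm6b, differed by -0.20 and 0.18 in the dual knockdown, and Bap1, the deubiquitinase that opposes PRC1, by 0.03, and none of them passed. Of 11 kept genes of COMPASS, the methyltransferases of histone H3 lysine 4, 2 rose and 4 fell in the dual knockdown. Over all probes, 20.6% were called higher and 21.2% lower there. The called COMPASS genes were led by Dpy30 at -0.81, Men1 at 0.48, Wdr5 at -0.42 and Setd1a at 0.41. Nsd1, a lysine 36 methyltransferase, was called lower in the dual knockdown, but was dim and detected on 2 of 4 dual arrays, having passed the filter through Esrrb and GFP arrays.

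Rbbp7 also serves other complexes. Of 8 kept genes of the NuRD deacetylase, 2 rose and 2 fell in the dual knockdown, with Hdac2 at -0.55, Mta3 at 0.49, Mta2 at 0.29 and Mbd3 at -0.28 and a median of 0.11, beside 20.6% of all probes higher and 21.2% lower. That count lies near the background. Beside the same shares of all probes, 0 of 7 kept genes of other complexes that hold Rbbp4 or Rbbp7 rose and 2 fell. The 2 were Chaf1b at -0.60, a subunit of chromatin assembly factor 1, and Sap30 at -0.47, a subunit of the Sin3 deacetylase. Genes of S phase and E2F targets, among which Ezh2 is often counted, were 18. Of these, 0 rose and 12 fell in the dual knockdown, with a median of -0.40, beside 20.6% of all probes higher and 21.2% lower. Rrm2 fell by 0.79, E2f2 by 0.74, Pcna by 0.63 and E2f1 by 0.61. With median scaling 6 of the 18 fell, beside 1140 of all 11591 probes called lower in that fit. Within A and B alone 7 fell, beside 1575 of all 12150 probes called lower. The Pcna probe was dim and detected on 3 of 4 dual arrays, having passed the filter through Esrrb, Sox2 and GFP arrays.

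Of genes known as PRC2 targets, 16 of 34 on the array were kept. Of the 16, 4 (Hoxb1, Foxc1, Hand1 and Msx2) had not been detected on all GFP arrays and passed the filter through knockdown arrays, so the count over the 16 is biased upward. Of the 12 detected on every GFP array, 8 rose and 0 fell in the dual knockdown and likewise with the Sox2 hairpin, and 1 rose with the Esrrb hairpin, with medians of 0.58, 0.48 and 0.17. Of all probes, 20.6, 20.0 and 5.12% were called higher and 21.2, 20.2 and 5.05% lower in the dual, Sox2 and Esrrb knockdowns. Gata3, a regulator of trophectoderm, read 207.1 to 257.8 intensity units in the dual knockdown, against 51.8 to 66.6 with the GFP hairpin, and rose by 1.83. Cdkn1c, a cyclin-dependent kinase inhibitor, rose by 1.52. Msx2 (1.63), Hoxb1 (1.45) and Hand1 (at least 1.43-fold higher) are among the 4 that passed through knockdown arrays, so the filter favoured their rises.

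**Figure D4:**
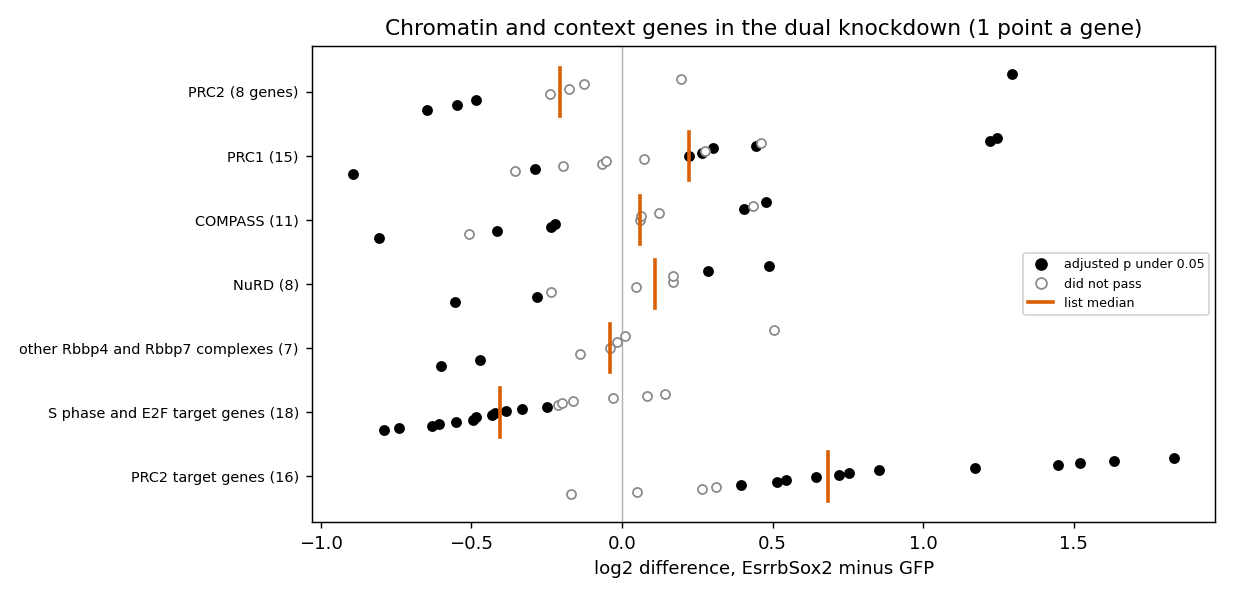
Log2 difference of the dual knockdown from GFP for the 8 PRC2 genes and for genes of 6 lists (the number of genes in brackets), 1 point a gene by its brightest kept probe; filled points have an adjusted p under 0.05 and the orange line is the list median. The PRC2 genes spread from -0.65 to 1.29 around a median of -0.21, while the S phase list has its median at -0.40 and the list of PRC2 targets at 0.68, the last including 4 genes that were not detected on all GFP arrays.

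Markers of cell types moved with the same hairpins. The summed intensity of 9 trophectoderm markers was 7760.7 to 8495.8 on Esrrb arrays, 18651.5 to 22872.7 on Sox2 arrays and 19093.8 to 25648.9 on dual arrays, against 8342.6 to 9382 on GFP arrays, while Eomes was detected on 0 Esrrb and 0 Sox2 arrays and Hand1 on 0 GFP arrays. Gata3, Cdx2 and Hand1 gave little of this sum, with at most 257.8, 394.4 and 49.7 units on dual arrays. Cdx2 averaged 231 units with the Sox2 hairpin and 300 with the GFP hairpin, which was not called. Of 7 kept trophectoderm markers, Plac1 and Hand1 were not detected on all GFP arrays and had passed through knockdown arrays. Of the other 5, 3 rose and 0 fell in the dual knockdown, namely Krt18 by 2.77, Krt8 by 2.25 and Gata3 by 1.83. Cdx2 and Tfap2c did not pass there (0.26 and -0.06). With the Esrrb hairpin, 2 of these 5 markers rose and 1 fell, namely Tfap2c by 0.43, and their median was 0.18. For that hairpin 5.12% of all probes were called higher. Gata3, Hand1, Cdx2 and Eomes also stand among the PRC2 targets. The sum of 7 ES cell markers was 58936.9 to 67249 on Esrrb arrays, 55429.2 to 58724 on Sox2 arrays and 52365 to 57353.4 on dual arrays, against 64481.5 to 66516.8 on GFP arrays, and Dppa5a, which was called in no knockdown, made up 46255.3 to 50131.6 of it on GFP arrays. With the Esrrb hairpin 4 of the 7 fell (Fgf4, Zfp42, Nanog and Utf1), and in the Sox2 and dual knockdowns 6 of 7 fell. Of all probes, 5.05, 20.2 and 21.2% were called lower in the Esrrb, Sox2 and dual knockdowns. Fgf4 was dim, was detected on 3 of 4 Sox2 and 2 of 4 dual arrays, and had passed the filter through Esrrb and GFP arrays. The sum of 7 extraembryonic endoderm markers was 661 to 910.1, 1152.1 to 1274.8 and 1035.9 to 1304.7 on Esrrb, Sox2 and dual arrays, against 927.7 to 1083.6 on GFP arrays, with Foxa2 detected on 0 arrays. The sum of 6 fibroblast markers was 1067.1 to 1256, 1010.6 to 1185.5 and 874.5 to 1166 on those arrays, against 1177.8 to 1468.4 on GFP arrays, with Col3a1 and Postn detected on 0 arrays. The part of cell type composition in the values of Rbbp7, Mtf2 and the other members was not tested.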

How the data were processed

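Total RNA of 4 hairpin groups was measured on 16 arrays, 4 a group. The authors deposited linear intensities, called non-normalized per the file headers (lowest -33.2, so a background had been subtracted), with a detection score, which the file headers call a p-value but which rises with intensity and was read as 1 minus the detection p. Their second deposited table gives 1 processed ratio a probe and group, and how it was scaled is unknown here. A single gene symbol was found for 23978 of the 25697 probes, and several for 0.

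From these, limma 3.58.1 (R 4.3.3) computed all tests: neqc with an offset of 16, quantile normalization, log2, a filter on detection p under 0.01 on all 4 arrays of a group (11591 probes), 1 mean per group, eBayes, and 7 contrasts with Benjamini-Hochberg adjustment over all kept probes. A gene in a list was represented by its brightest kept probe. Genes named were every member probe, the targets, and of each list up to 4 called genes with the largest difference in the dual knockdown, or 2 where none was called. The fit was also run on simulated data with independent noise on each array and a set of probes shifted in 1 group. Those data lack the deviations that real arrays share (given below), so the run gives no error rate for this fit. The number of arrays limits the precision. The members, lists and tests were chosen with earlier results of these data known. Arrays that share a letter deviated together across groups (r = 0.144 to 0.435 in 24 pairs), as did the other letter of the same pair (0.229 to 0.432), against -0.445 to -0.145 for the other pair, so values with the letter as a block are printed where they change a call. The array letters come from the column names. The alternatives were no background step, no normalization between arrays or median scaling, no filter or a stricter one, 1 probe a gene, a trended robust variance, blocks, either pair of letters alone and leaving out each array.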

Additional observations from a re-analysis of the deposited data

Results flagged for a closer look

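Among 44 groups of 4 arrays (11 probes in 4 groups), 2 held an array that stood apart from its group by Dixon's test, and chance alone marks about 1 in 20 groups. The Aebp2 probe ILMN_3138674 had a normalized log2 value of 7.1451 on Esrrb array D, the lowest of its group, with an intensity of 120.8 beside 179.6 to 188.7 on the other Esrrb arrays. The Rbbp7 probe ILMN_1219275 had 11.7301 on Esrrb array A, the highest of its group, with an intensity of 3391.2 beside 3025.1 to 3262.6 on the others.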

How the results depend on the processing

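No called difference turned its direction under any alternative. Under median scaling, the probes called over the whole table fell to 249 (Esrrb against GFP, main 1178), 2076 (Sox2 against GFP, main 4658), 2321 (dual against GFP, main 4839), 1608 (dual against Esrrb, main 4330), 60 (dual against Sox2, main 611), 1856 (Esrrb against Sox2, main 4628) and 38 (interaction, main 290). With A and B arrays alone they were 419 (Esrrb against GFP), 2735 (Sox2 against GFP), 2577 (dual against Esrrb), 125 (dual against Sox2), 2752 (Esrrb against Sox2) and 39 (interaction). With C and D arrays alone they were 383 (Esrrb against GFP), 2543 (dual against Esrrb), 31 (dual against Sox2), 3058 (Esrrb against Sox2) and 17 (interaction). Without the filter, dual against Sox2 gave 347 and the interaction 145, and with the pair of letters as a block 971 and 500. Leaving out 1 array gave 356 to 620 for dual against Sox2, lowest without Sox2 array B, and 187 to 321 for the interaction, lowest without GFP array B. Fewer arrays in a fit lower its power by construction, and the cause of the other shifts was not tested.

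Of PRC2 probes, Esrrb against GFP had 1 called under median scaling, 1 with A and B alone and 1 with C and D alone (main 4). The last was Aebp2 ILMN_3040064, which passes the filter there but is outside the 11 kept probes, of which 0 were called in C and D alone. Sox2 against GFP had 8 without normalization between arrays and 2 with 1 probe a gene (main 5). Of all probes, 5031 of 11591 and 3565 of 8248 were called in those fits. Dual against GFP had 4 with 1 probe a gene (main 7), where Rbbp7 counts once, beside 3663 of all 8248 probes. Dual against Esrrb had 3 with 1 probe a gene and 3 with C and D alone (main 6). Of all probes, 3312 of 8248 and 2543 of 13474 were called there. Dual against Sox2 had 1 with the replicate block (main 0), beside 878 of all 11591 probes. The interaction had 1 with a trended robust variance, beside 398 of all 11591 probes, and 0 to 1 when an array was left out. In the latter the 1, without GFP array A, was again ILMN_3040064 and 0 of the 11 were called. Beyond the blocked values printed in the report, the replicate block changed no other call of a kept PRC2 probe. Without normalization between arrays the median of all probes moved to -0.10, -0.14 and -0.14 log2 units against GFP for Esrrb, Sox2 and dual, and the share of higher calls to 18.4, 27.8 and 29.5% (main 50.3, 49.8 and 49.3%). Median scaling gave 32.1% for Esrrb, 30.0% for dual against Sox2 (main 46.8%) and 68.4% for the interaction (main 55.2%), which was 85.6% without normalization between arrays.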
